A study of Homo sapiens with 9 samples.

Results

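The genes described are the 6 of the ISG15 conjugation pathway: ISG15 itself, the activating enzyme UBA7, the conjugating enzyme UBE2L6, the ligase HERC5, its relative HERC6, and the protease USP18. Members are all probes whose gene name in the array files is one of the 6; the rule uses no measured value, but the pathway was picked with earlier results of these data known. They stand for 6 of 43395 genes and 7 of 58201 probes on the array, with 2 probes for HERC6 and 1 for each other gene. All 6 genes passed the filter on dim probes, and all 7 probes were well above background on all 9 arrays.

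RNA was measured in T47D, an established human luminal breast cancer cell line, after stable transfection with a pTARGET vector and G418 selection. T47D-VC1 cells carried the empty vector, T47D-PA5 cells expressed an incomplete PTH-AS that lacks part of the 5′ end, and T47D-PA6 cells expressed full-length PTH-AS, a long noncoding RNA transcribed downstream of the parathyroid hormone gene. The question was how gene expression differs with full-length PTH-AS, with T47D-PA5 as a control for the transfer of foreign sequence. Each group was 3 arrays of 1 selected line. The labels do not say whether the arrays came from separate cultures, so p-values measure the spread between arrays, which may be technical, and effects of the transcript and of the selection of a line cannot be told apart.

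ISG15 is a ubiquitin-like protein that interferon induces. UBA7 activates it, UBE2L6 carries it, and HERC5 attaches it to target proteins, many of them newly made. HERC6 is the closest relative of HERC5 and takes its role in the mouse. USP18 removes ISG15 from its targets and, apart from its protease activity, binds the interferon receptor chain IFNAR2 and restrains its signaling. ISG15 also acts unconjugated, inside the cell by stabilizing USP18 and outside it through the integrin LFA-1.

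Sequences of 4 of the 6 genes were matched in RefSeq promoters of GRCh38.p14, each of 250 bases before and 50 after the transcript start. They were searched on both strands for 2 copies of GAAA with 2 bases of any kind between them, the core of the interferon-stimulated response element, and for TTCNNNGAA, the core of the interferon-gamma-activated site. ISG15 and HERC5 had the first motif and HERC6 and UBE2L6, which has 2 promoters listed, had no match to it. The second motif was matched in 0 of the 4. Over all 35116 promoters of this length, 3.57% held the first motif and 7.66% the second. The stretch from 150 to 51 bases before the start is shown for ISG15 and HERC5, which hold the matches, and for HERC6, which lies next to HERC5 on the same chromosome; capitals mark matches to the first motif or its reverse complement.
ISG15, chr1:1013347-1013446, plus strand: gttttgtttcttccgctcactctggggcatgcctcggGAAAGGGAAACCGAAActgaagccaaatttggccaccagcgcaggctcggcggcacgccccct
HERC5, chr4:88456969-88457068, plus strand: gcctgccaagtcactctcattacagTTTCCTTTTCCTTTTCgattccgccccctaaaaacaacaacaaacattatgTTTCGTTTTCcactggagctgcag
HERC6, chr4:88378702-88378801, plus strand: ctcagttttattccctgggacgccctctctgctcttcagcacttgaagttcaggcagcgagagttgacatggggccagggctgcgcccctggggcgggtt
The ISG15 promoter had 2 overlapping matches, the first of which began 113 bases before the start. The HERC5 promoter had 3 matches to the reverse complement, of which the pair at 125 and 119 bases overlapped and the other was at 74 bases. A match is a likeness of letters, and binding was not measured.

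The array reads each gene through an oligonucleotide of 60 bases. Those of UBA7, UBE2L6 and HERC5 are shown because all values of these genes rest on them, and each has a reading frame with no stop over its length.
UBA7, chr3:49845325-49845476 of hg19, minus strand: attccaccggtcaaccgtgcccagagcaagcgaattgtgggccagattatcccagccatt
UBE2L6, chr11:57319897-57319956 of hg19, minus strand: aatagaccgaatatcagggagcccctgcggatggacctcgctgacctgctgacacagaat
HERC5, chr4:89426889-89426948 of hg19: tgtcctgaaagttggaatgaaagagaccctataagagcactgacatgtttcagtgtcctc
The UBA7 oligonucleotide spans more genome than its own length, so it crosses at least 1 intron. The HERC6 probes lie at chr4:89363667-89363726 and chr4:89317234-89317293, and the USP18 probe at chr22:18659618-18659677, all of hg19. USP41, a near-identical copy of USP18, was not analysed here, and whether the USP18 probe also reads it was not tested.

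The share of probes well above background was 44% to 48% on an array, and saturation was not met on any. The 9 luminal markers, among them the keratins KRT8 and KRT18 and the receptors ESR1 and PGR, passed that mark on all 9. Their summed signal of 492000 to 530000 was mostly that of KRT19 (276000 to 301000), and PGR had a mean of 15100 in T47D-VC1, against 11600 for T47D-PA5 and 7200 for T47D-PA6. The replicate 1 arrays of the 3 lines shared a slide and the earlier of 2 scan runs. T47D-VC1 and T47D-PA5 had replicate 2 on slide 2 and replicate 3 on slide 3. T47D-PA6 had replicates 2 and 3 both on slide 3, so line and slide are partly confounded. Among the T47D-PA5 arrays replicate 1 stood apart: the mean change of the 6 genes from the T47D-VC1 mean, on the log2 scale, was 0.78 there and 1.58 and 1.5 on the other T47D-PA5 arrays. It was 2.77 to 3.01 on the T47D-PA6 arrays.

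All 6 genes rose in T47D-PA6 cells over T47D-VC1 cells, from 3.12-fold for UBA7 to 80.9-fold for ISG15. T47D-PA5 cells lay between the other lines in the mean of every gene. ISG15, HERC6 and USP18 passed the test there over T47D-VC1, and UBA7, UBE2L6 and HERC5 did not. The modifier had a larger log2 fold change than any enzyme that handles it, in each of the 3 comparisons. On arrays of a whole culture, more RNA per cell and more cells with a transcript cannot be told apart. Signals below are normalized array signals, group means are geometric, SDs are on the log2 scale with n = 3 arrays, and adjusted p-values are from limma with Benjamini-Hochberg adjustment over 20106 genes. Signals of different genes are not compared, because each probe has its own sensitivity.

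ISG15 gave signals of 1100, 619 and 514 on the T47D-VC1 arrays in the order of replicates 1 to 3. On the T47D-PA5 arrays its signals were 2990, 9060 and 8240, and on the T47D-PA6 arrays 47600, 61000 and 63600. The 3 lines did not overlap, and T47D-PA5 replicate 1 lay nearest to the vector control. The means were 704 (SD 0.57), 6070 (SD 0.89) and 57000 (SD 0.23). ISG15 rose 80.9-fold in T47D-PA6 over T47D-VC1 (on the log2 scale 6.34 ± 0.43 SE, adjusted p = 0.00037). It rose 8.62-fold in T47D-PA5 over T47D-VC1 (3.11 ± 0.43, adjusted p = 0.013) and 9.39-fold in T47D-PA6 over T47D-PA5 (3.23 ± 0.43, adjusted p = 0.005). ISG15 thus passed the test between both pairs of neighbors.

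UBA7, the E1 enzyme that activates ISG15, had the smallest rise of the 6 over the vector control. Its signals were 48, 30.1 and 27.4 in T47D-VC1, 37.9, 63.5 and 84.2 in T47D-PA5, and 117, 112 and 91.6 in T47D-PA6. T47D-PA5 replicate 1 lay below T47D-VC1 replicate 1, so these lines overlapped, whereas all T47D-PA6 arrays were above all others. UBA7 rose 3.12-fold in T47D-PA6 over T47D-VC1 (log2 fold change 1.64 ± 0.31 SE, adjusted p = 0.015), a call that was lost without T47D-VC1 replicate 2, T47D-VC1 replicate 3 or T47D-PA6 replicate 2 (adjusted p = 0.056, 0.064 and 0.058). With normexp background correction, whose offset of 50 is added to every signal and so shrinks the changes of dim probes, its log2 fold change was 0.74 (adjusted p = 0.012). T47D-PA5 did not differ from either neighbor beyond the test, with log2 fold changes of 0.79 ± 0.31 over T47D-VC1 (adjusted p = 0.26) and of 0.85 ± 0.31 for T47D-PA6 over T47D-PA5 (adjusted p = 0.13).

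UBE2L6, the E2 enzyme, had signals of 1650, 1480 and 1320 in T47D-VC1 and of 1680, 2760 and 2470 in T47D-PA5. In T47D-PA6 they were 5130, 5960 and 6040. The vector control and T47D-PA5 replicate 1 were nearly level, and the T47D-PA6 arrays were clear of the rest. The means were 1480 (SD 0.16), 2260 (SD 0.38) and 5690 (SD 0.13). UBE2L6 rose 3.85-fold in T47D-PA6 over T47D-VC1 (log2 fold change 1.95 ± 0.19 SE, adjusted p = 0.00093) and 2.52-fold over T47D-PA5 (1.34 ± 0.19, adjusted p = 0.0057). Its change in T47D-PA5 over T47D-VC1 was 0.61 ± 0.19 on the log2 scale (adjusted p = 0.16), and 0.82 (adjusted p = 0.033) without T47D-PA5 replicate 1.

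HERC5, the main ligase for ISG15 in human cells, had signals of 26.9, 33.6 and 35.1 in T47D-VC1, 54.1, 98.6 and 77.1 in T47D-PA5, and 190, 316 and 319 in T47D-PA6. The 3 lines did not overlap, and replicate 1 was the lowest array in each of them. HERC5 rose 8.45-fold in T47D-PA6 over T47D-VC1 (log2 fold change 3.08 ± 0.27 SE, adjusted p = 0.00061). With normexp this change was 1.7, below those of UBE2L6 (1.9) and USP18 (1.76). It also rose 3.59-fold over T47D-PA5 (1.85 ± 0.27, adjusted p = 0.0061). Between T47D-PA5 and T47D-VC1 HERC5 had a log2 fold change of 1.23 ± 0.27 (adjusted p = 0.064). It passed the test there with the slide or the replicate number as a block (adjusted p = 0.0098 and 0.0099), and without T47D-PA5 replicate 1 or T47D-PA6 replicate 1 (adjusted p = 0.04 and 0.034).

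HERC6, the HERC5 relative, was read by 2 probes that agreed in direction and not in size. The one with the higher mean over all 9 arrays, which stands for the gene, gave 15.7, 19.3 and 16.6 in T47D-VC1, 33.7, 47.6 and 45.8 in T47D-PA5, and 104, 108 and 101 in T47D-PA6. No line overlapped another on this probe, and the T47D-PA6 arrays were tight (SD 0.05). It rose 6.07-fold in T47D-PA6 over T47D-VC1 (log2 fold change 2.6 ± 0.15 SE, adjusted p = 2e-04), 2.44-fold in T47D-PA5 over T47D-VC1 (1.29 ± 0.15, adjusted p = 0.0055) and 2.48-fold in T47D-PA6 over T47D-PA5 (1.31 ± 0.15, adjusted p = 0.0027). With normexp these log2 fold changes were 1.12, 0.4 and 0.72 (adjusted p = 0.00012, 0.046 and 0.0016).

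The other HERC6 probe gave 20.4, 31.7 and 22.9 in T47D-VC1, 39, 47 and 38.8 in T47D-PA5, and 48.2, 61.1 and 62.2 in T47D-PA6. The lines were again in the same order with no overlap. In a fit over all 26171 tested probes, it changed by 1.21 on the log2 scale in T47D-PA6 over T47D-VC1 (adjusted p = 0.0061), 0.75 in T47D-PA5 over T47D-VC1 (adjusted p = 0.093) and 0.45 in T47D-PA6 over T47D-PA5 (adjusted p = 0.17). The calls of HERC6 in both comparisons with T47D-PA5 therefore rest on the first probe. Its mean was lower than that of the other probe in T47D-VC1 (17.1 against 24.6), level in T47D-PA5 (41.9 against 41.4) and higher in T47D-PA6 (104 against 56.8). It was thus chosen through the line in which it is high, which favors the larger fold.

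USP18, the protease that removes ISG15, had the tightest vector control arrays of the 6, with signals of 476, 482 and 462. In T47D-PA5 its signals were 671, 861 and 782, and in T47D-PA6 they were 1590, 1800 and 1810. No line overlapped another. USP18 rose 3.66-fold in T47D-PA6 over T47D-VC1 (log2 fold change 1.87 ± 0.11 SE, adjusted p = 0.00025), 1.62-fold in T47D-PA5 over T47D-VC1 (0.70 ± 0.11, adjusted p = 0.025) and 2.26-fold in T47D-PA6 over T47D-PA5 (1.18 ± 0.11, adjusted p = 0.0018). The removing enzyme thus rose together with the attaching enzymes in T47D-PA6.

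**Figure D1:**
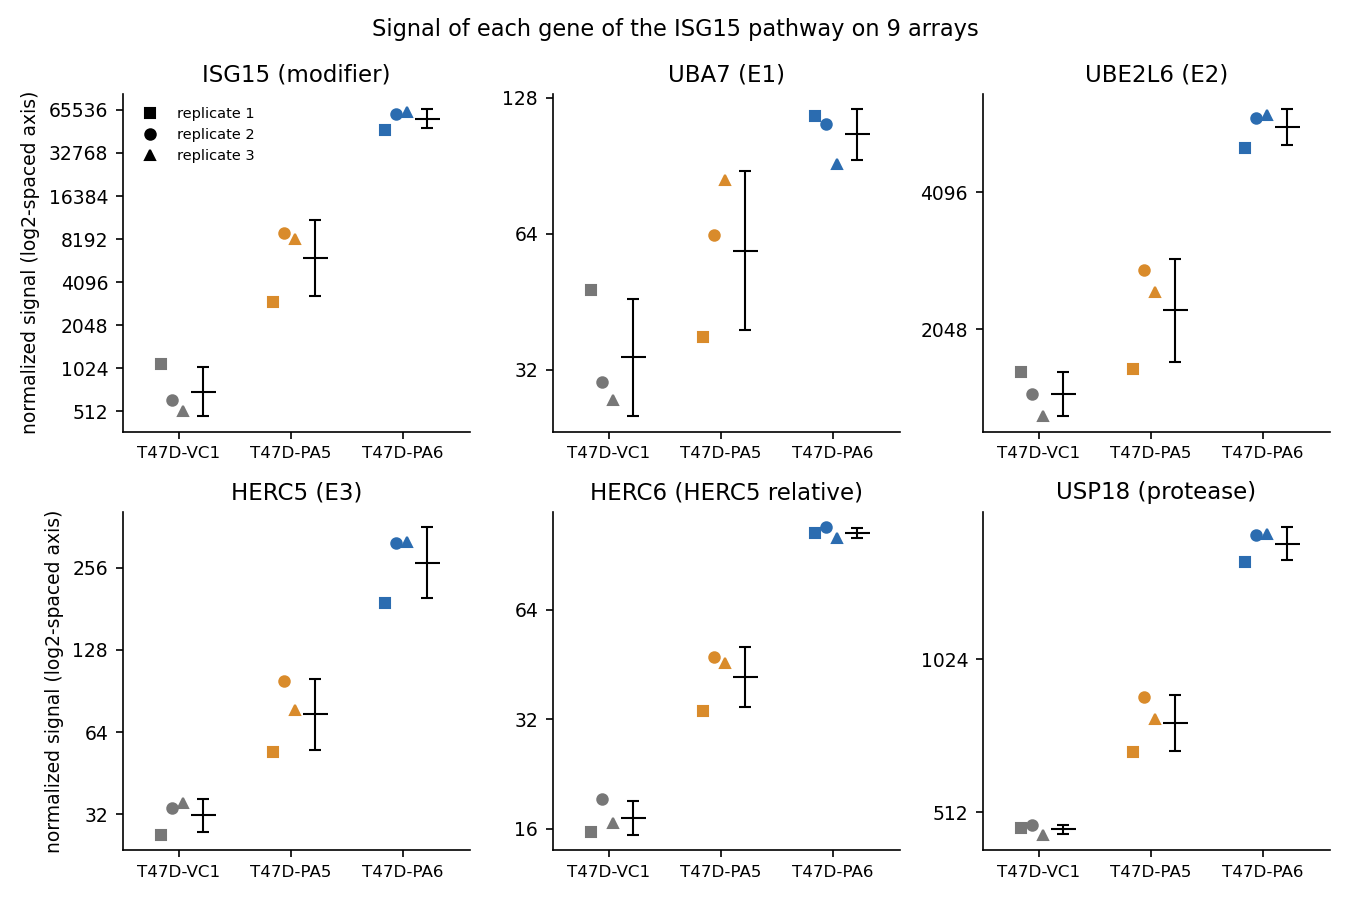
Normalized signal of the 6 genes on the 9 arrays, with a log2-spaced vertical axis in each panel and the lines T47D-VC1, T47D-PA5 and T47D-PA6 on the horizontal axis. Points are arrays, with shapes for the replicate numbers, and the black bars are the geometric mean ± SD on the log2 scale (n = 3). T47D-PA6 is above both other lines in every panel, and T47D-VC1 and T47D-PA5 overlap for UBA7 only. The share of all genes whose lines separate in this way was not counted.

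Counted over the pathway, 6 of 6 genes were called higher in T47D-PA6 over T47D-VC1, beside 4.69% of all 20106 genes called higher and 10.0% called in either direction. In T47D-PA5 over T47D-VC1, 3 of 6 were called higher, beside 1.37% of all genes higher and 1.67% in either direction. In T47D-PA6 over T47D-PA5, 5 of 6 were called higher, all but UBA7, beside 3.65% of all genes higher and 9.71% in either direction. On the log2 scale the 6 had median changes of 2.27, 1.01 and 1.32 in these comparisons, and all genes of -0.03, -0.03 and 0.00. The comparisons share arrays: both comparisons with T47D-VC1 use the same control arrays, so their values are given side by side and are not independent of each other.

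**Figure D2:**
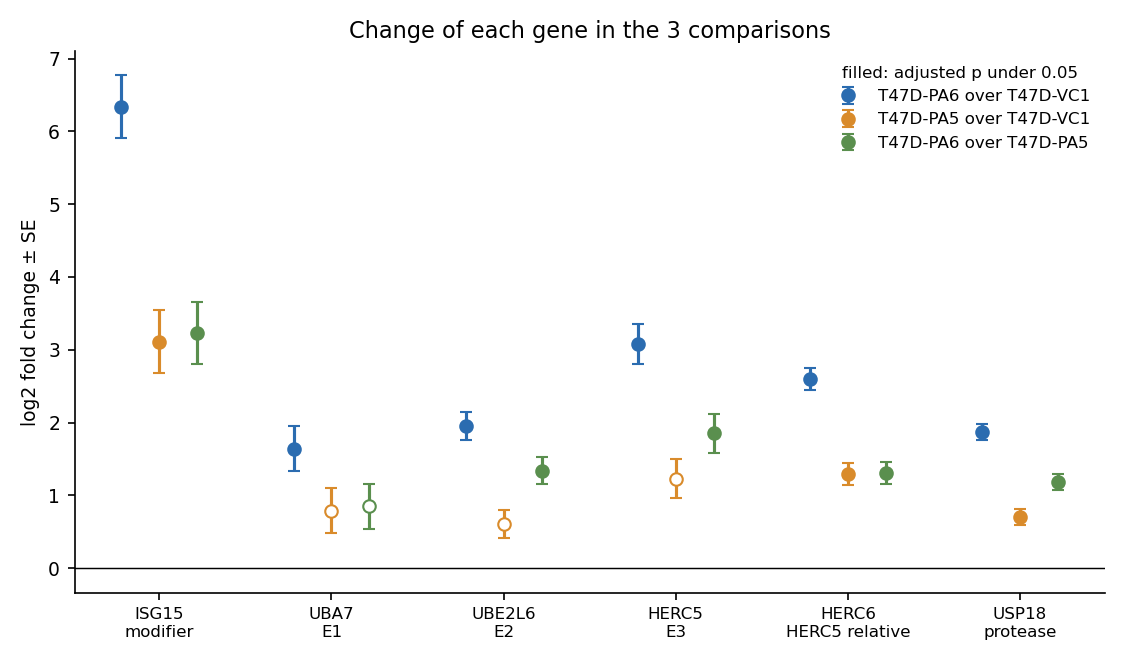
Log2 fold change ± SE of each gene in T47D-PA6 over T47D-VC1, T47D-PA5 over T47D-VC1 and T47D-PA6 over T47D-PA5. Filled points have an adjusted p under 0.05; all 6 are filled in the first comparison, 3 in the second and 5 in the third, and ISG15 is at 6.34, 3.11 and 3.23.

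The T47D-PA5 calls were few and moved with single arrays. Without T47D-PA5 replicate 1, 5 of 6 genes passed the test over T47D-VC1, all but UBA7. Without T47D-VC1 replicate 2, T47D-VC1 replicate 3, T47D-PA5 replicate 2 or T47D-PA5 replicate 3, HERC6 alone did, and ISG15 then had log2 fold changes of 2.82 to 3.01 (adjusted p = 0.053 to 0.066). USP18 was also lost without T47D-PA6 replicate 2 or 3 (adjusted p = 0.052 and 0.053), since the lines share an estimate of the spread. Without T47D-PA6 replicate 1 the other HERC6 probe had the higher mean and stood for the gene, and HERC6 was not called in either comparison with T47D-PA5 (log2 fold changes of 0.76 and 0.58, adjusted p = 0.069 and 0.093).

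Within the earlier scan run, which holds 1 array of each line, the log2 difference of T47D-PA5 from T47D-VC1 was -0.34 for UBA7, 0.03 for UBE2L6, 0.50 for USP18, 1.01 for HERC5, 1.1 for HERC6 and 1.45 for ISG15. Within the later run, with 2 arrays of each, it was 0.80 for USP18, 0.90 for UBE2L6, 1.35 for UBA7 and for HERC5, 1.38 for HERC6 and 3.94 for ISG15. UBA7 was thus the gene whose difference between these lines changed sign between the runs. The differences of T47D-PA6 from T47D-VC1 were positive for all 6 genes in both runs, from 1.29 for UBA7 to 5.44 for ISG15 in the earlier run and from 1.82 to 6.79 for the same genes in the later one. Those of T47D-PA6 from T47D-PA5 were positive too, and the values of UBA7 were 1.63 and 0.47. With the slide as a block, ISG15, HERC5, HERC6 and USP18 passed in T47D-PA5 over T47D-VC1 (adjusted p = 0.027, 0.0098, 0.0051 and 0.02).

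**Figure D3:**
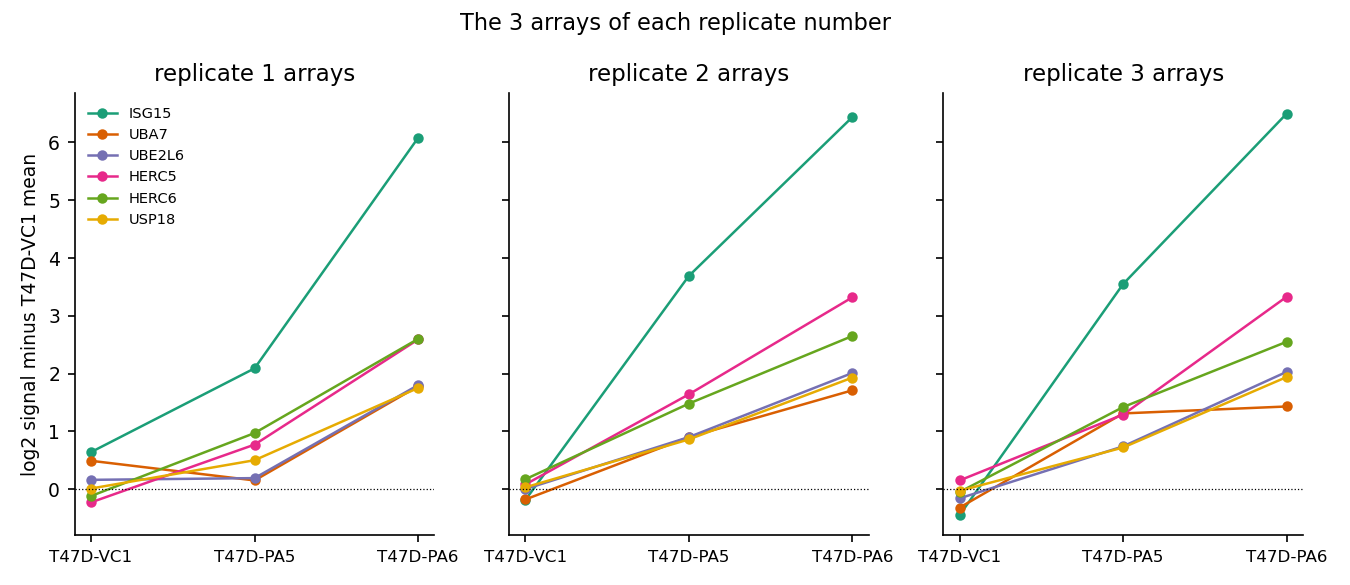
Log2 signal of each gene minus its T47D-VC1 mean, in 1 panel for the arrays of each replicate number, with lines joining the values of a gene in the 3 cell lines. On the replicate 1 arrays UBA7 is lower in T47D-PA5 than in T47D-VC1 and UBE2L6 is level, and on the replicate 2 and 3 arrays all 6 genes are higher in T47D-PA5.

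To ask whether the genes changed by unequal amounts, the log2 ratio of each enzyme signal to the ISG15 signal was taken on each array, which cancels the scale of the array. In T47D-PA6 over T47D-VC1 the ratio to ISG15 changed by -4.70 for UBA7, -4.47 for USP18, -4.39 for UBE2L6, -3.74 for HERC6 and -3.26 for HERC5. In T47D-PA5 over T47D-VC1 the 5 ratios changed by -2.50 (UBE2L6) to -1.82 (HERC6), and in T47D-PA6 over T47D-PA5 by -2.38 (UBA7) to -1.38 (HERC5). In all 15 the arrays of the lines did not overlap. The share of all genes whose ratio to ISG15 separates in this way was not counted. A gene with no change would fall relative to ISG15 as well. An exact two-sided permutation test of 3 against 3 arrays gave p = 0.1 for each (adjusted p = 0.1 over the 15). This is the smallest it can give, so no ratio could pass. The 15 changes are not independent, as all share the ISG15 signal, and each fall restates the larger log2 fold change of ISG15.

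The profiles over the 9 arrays were set against each other as the root mean square difference of log2 signals. Each gene was centered on its own mean and not scaled, so the size of a change counts as well as its pattern. UBE2L6 and USP18 were the most alike of the 15 pairs (0.13), although they have opposite roles in conjugation. UBA7 and UBE2L6 differed by 0.32, HERC6 and USP18 by 0.33, and HERC5 and HERC6 by 0.34. ISG15 was farthest from the others, at 1.41 from HERC5 to 1.94 from UBA7. Its profile also had the largest SD over the arrays, 2.8 against 0.8 (UBA7) to 1.38 (HERC5) for the others. All these profiles share the same 9 arrays and the same 3 lines.

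Among all other tested genes, those nearest to ISG15 were IFIT3 (0.37), IFIT1 (0.39) and OASL (0.47). IFIT1 and IFIT3 encode proteins that bind foreign RNA or partner in that binding, and OASL carries ubiquitin-like domains. Nearest to UBA7 were IFI35 (0.19), DHX58 (0.21) and PARP10 (0.21), and nearest to UBE2L6 were LGALS3BP (0.12), the immunoproteasome subunit PSMB8 (0.14) and the noncoding HCP5 (0.17). IFITM2 (0.11), PLSCR1 (0.15) and a transcript that the files name ENST00000522529 (0.18) were nearest to HERC5. DTX3L (0.19), the immunoproteasome subunit PSMB9 (0.20) and PARP14 (0.21) were nearest to HERC6, and TRIM21 (0.13), PSMB8 (0.14) and PARP12 (0.15) to USP18. PSMB8 thus stood among the nearest genes of both UBE2L6 and USP18.

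The wider ISG15 system was read from a list of 36 genes, of which 34 were tested. HERC3 was dim on all arrays and USP41 was not analysed here. Of the 34, 3 were called in T47D-PA6 over T47D-VC1, all higher, 1 in T47D-PA5 over T47D-VC1, higher, and 2 in T47D-PA6 over T47D-PA5, of which 1 was higher and 1 lower. These are 8.82%, 2.94% and 5.88% of the list, beside the 10.0%, 1.67% and 9.71% of all genes. Their median log2 fold changes were -0.01, 0.02 and 0.03. The shares of this list were thus near those of all genes.

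The relatives of the pathway enzymes did not pass limma's test in any of the 3 comparisons. The 8 E1 enzymes of other modifiers, UBA1 and ATG7 among them, lay between -0.35 and 0.13 on the log2 scale in T47D-PA6 over T47D-VC1, with a lowest adjusted p of 0.14 and 1 gene at an unadjusted p under 0.05. UBE2L3, the closest relative of UBE2L6, had signals of 3250 to 4530 in T47D-VC1, 4270 to 4530 in T47D-PA5 and 4090 to 4990 in T47D-PA6, which overlapped throughout. Its log2 fold changes were 0.20 ± 0.14 SE (adjusted p = 0.41) in T47D-PA6 and 0.16 ± 0.14 (adjusted p = 0.66) in T47D-PA5 over T47D-VC1. HERC1, HERC2 and HERC4 lay between -0.15 and 0.27 in T47D-PA6 over T47D-VC1 (lowest adjusted p = 0.21, 0 genes at an unadjusted p under 0.05). The 8 other modifiers, among them the ubiquitin gene UBB and NEDD8, lay between -0.44 and 0.19 (lowest adjusted p = 0.069, 2 genes unadjusted). The 5 other proteases reported to act on ISG15 lay between -0.53 and -0.01 (lowest adjusted p = 0.081, 1 gene unadjusted).

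Of the other enzymes reported to attach ISG15, TRIM25, a RING ligase that also modifies RIG-I, had signals of 5410, 4950 and 5200 in T47D-VC1, 5930, 6390 and 6820 in T47D-PA5, and 7520, 7410 and 7300 in T47D-PA6. The lines did not overlap, over a narrow range. TRIM25 rose 1.43-fold in T47D-PA6 over T47D-VC1 (log2 fold change 0.52 ± 0.09 SE, adjusted p = 0.012), and its changes of 0.30 and 0.22 in the other comparisons did not pass (adjusted p = 0.17 and 0.19). The call was lost without T47D-VC1 replicate 3, T47D-PA6 replicate 2 or T47D-PA6 replicate 3 (adjusted p = 0.054, 0.053 and 0.054). ARIH1, a RING-between-RING ligase, had log2 fold changes of 0.27, 0.00 and 0.27 (adjusted p = 0.3, 1 and 0.31).

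STAT2, through which USP18 reaches the interferon receptor, had signals of 5470, 4290 and 4860 in T47D-VC1, 4660, 7800 and 7420 in T47D-PA5, and 10700, 11900 and 11600 in T47D-PA6. T47D-PA5 replicate 1 lay within the vector control, and the T47D-PA6 arrays were above all others. STAT2 rose 2.35-fold in T47D-PA6 over T47D-VC1 (adjusted p = 0.0081) and 1.76-fold over T47D-PA5 (adjusted p = 0.036). The call over T47D-PA5 was lost with the slide as a block (adjusted p = 0.067), with no filter (0.095), with only the compared lines (0.068), with the unpaired test of the methods (0.15) and without T47D-PA6 replicate 2 or 3, T47D-PA5 replicate 3, or T47D-VC1 replicate 2 or 3 (0.053 to 0.12). Its log2 fold change in T47D-PA5 over T47D-VC1 was 0.41 ± 0.20 SE (adjusted p = 0.36). The unpaired test is one that the methods name for datasets in general, whereas they define changed genes of the arrays by fold alone.

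The chains of LFA-1, the reported receptor of free ISG15, did not change together. ITGB2, the beta chain, had signals of 19.4, 25.1 and 22.8 in T47D-VC1, 47.9, 68 and 93.7 in T47D-PA5, and 44.6, 78.1 and 83.7 in T47D-PA6. Both other lines were above the vector control and overlapped each other. ITGB2 rose 2.97-fold in T47D-PA6 (adjusted p = 0.015) and 3.02-fold in T47D-PA5 (adjusted p = 0.038) over T47D-VC1. In T47D-PA5 the call was lost without any single array of T47D-VC1, without T47D-PA5 replicate 2 or 3 and without T47D-PA6 replicate 2 or 3 (adjusted p = 0.058 to 0.14), and with normexp, where the log2 fold change was 0.62 (adjusted p = 0.087). In T47D-PA6 it was lost without T47D-VC1 replicate 3 or T47D-PA6 replicate 2 or 3 (adjusted p = 0.057 to 0.064), and with normexp the change was 0.6 (adjusted p = 0.038). With no filter or the unpaired test of the methods neither call stood (adjusted p = 0.052 to 0.16). A further ITGB2 probe was dim on all arrays.

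ITGAL, the alpha chain, had signals of 149, 156 and 126 in T47D-VC1, 149, 204 and 199 in T47D-PA5, and 126, 105 and 89.8 in T47D-PA6. It was 1.72-fold lower in T47D-PA6 than in T47D-PA5 (adjusted p = 0.026), and over T47D-VC1 its log2 fold change was -0.43 (adjusted p = 0.15). The call was lost with the slide as a block (-0.7, adjusted p = 0.063), with no filter (0.069), with only the compared lines (0.051), with the unpaired test of the methods (0.12) and without T47D-PA5 replicate 2 or 3 or T47D-PA6 replicate 2 or 3 (0.091 to 0.1). Both integrin chains are leukocyte genes. Of 5 blood and immune markers, 3 stood well above background on each array and CD3E and CSF1R on none, and their summed signal was 463 to 557 in T47D-VC1, 410 to 824 in T47D-PA5 and 570 to 720 in T47D-PA6. Their part in the integrin values was not tested.

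Proteins reported as ISG15 targets were read from a list of 16 genes, all tested. In T47D-PA6 over T47D-VC1, 6 were called, all higher, in T47D-PA5 over T47D-VC1 2, both higher, and in T47D-PA6 over T47D-PA5 6, all higher. These are 37.5%, 12.5% and 37.5% of the list, beside 10.0%, 1.67% and 9.71% of all genes. The median log2 fold changes of the list were 0.15, 0.00 and 0.21. Among the called genes were MX1, IFIH1, EIF2AK2, RIGI and STING1, which act in interferon signaling or in the sensing and restraint of viruses. The 10 others, such as IRF3, JAK1, PCNA and TSG101, lay between -0.42 and 0.26 in T47D-PA6 over T47D-VC1. The list is of substrates that others have reported, and conjugation was not measured.

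MX1, a GTPase that restrains viruses, had signals of 918, 1230 and 1040 in T47D-VC1, 4520, 19400 and 16000 in T47D-PA5, and 60800, 59700 and 66700 in T47D-PA6. The lines did not overlap, and T47D-PA5 replicate 1 was again the lowest of its line. MX1 rose 59.1-fold in T47D-PA6 (adjusted p = 5e-04) and 10.6-fold in T47D-PA5 (adjusted p = 0.012) over T47D-VC1. EIF2AK2, the double-stranded RNA kinase PKR, rose 4.27-fold in T47D-PA6 (adjusted p = 0.00052) and 2.06-fold in T47D-PA5 (adjusted p = 0.024). Both passed the test in all 3 comparisons. In T47D-PA5 over T47D-VC1, MX1 was lost without T47D-PA5 replicate 3 or T47D-VC1 replicate 3 (adjusted p = 0.062 and 0.061), and EIF2AK2 without any single array of T47D-VC1, T47D-PA5 replicate 2 or 3, or T47D-PA6 replicate 3 (adjusted p = 0.051 to 0.1). In T47D-PA6 over T47D-PA5, MX1 was lost without T47D-PA6 replicate 2 or 3 (adjusted p = 0.055 and 0.061). With no filter, MX1 was lost in both comparisons with T47D-PA5 (adjusted p = 0.055 and 0.057). EIF2AK2 was lost in T47D-PA5 over T47D-VC1 with no filter (0.071) and with only the compared lines (0.067). The unpaired test of the methods called neither gene in the comparisons with T47D-PA5 (adjusted p = 0.09 to 0.18).

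IFIH1, RIGI and STING1 passed in both comparisons of T47D-PA6 and not in T47D-PA5 over T47D-VC1. There limma gave log2 fold changes of 0.80, 0.38 and 0.10 (adjusted p = 0.15, 0.54 and 0.80). IFIH1 passed there without T47D-PA5 replicate 1 (1.06, adjusted p = 0.04). The later scan run alone also called IFIH1 and RIGI there (1.12 and 0.82, adjusted p = 0.0013 and 0.0024). The test of T47D-PA6 against T47D-PA5 is the one that bears on a difference between these lines. IFIH1, an RNA sensor, rose 4.89-fold over T47D-VC1 (adjusted p = 0.0013) and 2.80-fold over T47D-PA5 (adjusted p = 0.0085). RIGI, a sensor of the same family, rose 3.54-fold (adjusted p = 0.0044) and 2.73-fold (adjusted p = 0.011), the latter on the threshold without T47D-PA6 replicate 3 (adjusted p = 0.05). STING1, an adaptor of DNA sensing, rose 2.28-fold (adjusted p = 0.0021) and 2.13-fold (adjusted p = 0.0039). By the unpaired test of the methods, IFIH1 and STING1 were lost over T47D-PA5 (adjusted p = 0.098 and 0.055). RIGI, on its first probe, was lost over T47D-VC1 (0.085).

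**Figure D4:**
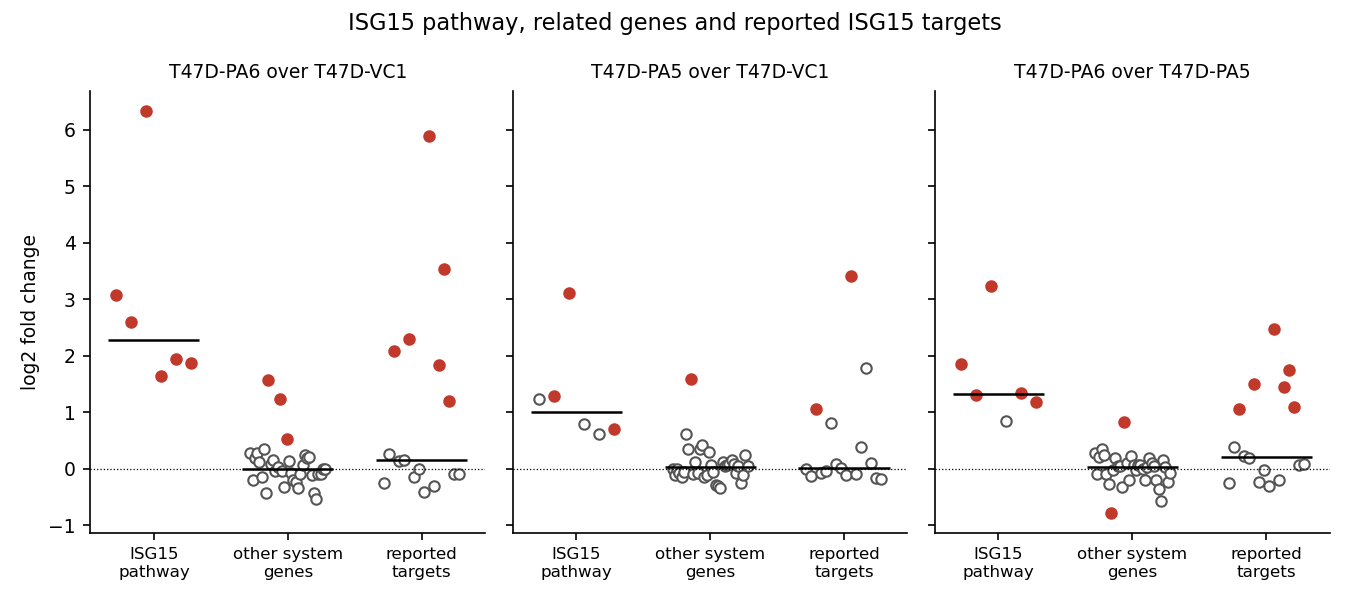
Log2 fold change of every tested gene of the ISG15 pathway (6), of the other genes of the ISG15 system (34) and of the reported ISG15 targets (16) in the 3 comparisons. Red points have an adjusted p under 0.05, and the black lines are medians, which in T47D-PA6 over T47D-VC1 lie at 2.27, -0.01 and 0.15.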

How the data were processed

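RNA of T47D-VC1, T47D-PA5 and T47D-PA6 was hybridized to 9 single-color Agilent arrays, 3 per line. The authors deposited the intensity of each spot from Feature Extraction, background-subtracted and not normalized between arrays, and quantile-normalized intensities of all arrays that served as an alternative. The methods and the submitters' processing notes name version 9.5.1.1 and the file headers 10.7.1.1. Groups and replicate numbers came from the sample titles.

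Log2 intensities of the 58201 probes were averaged over spots, without the 46 to 117 outlier spots per array, and quantile-normalized, as in the study's methods. A probe was tested when well above background on all arrays of at least 1 line, and the tested probe with the highest mean stood for a gene. RefSeq gave current gene names to probes through the symbol (31127), the accession (3343) or a synonym (496), and 23235 kept their name. Differences between lines were tested with limma 3.58.1 (lmFit, eBayes) in R 4.3.3, with data.table (version 1.17.8), in 1 fit over 9 arrays with 6 residual degrees of freedom and Benjamini-Hochberg adjustment, at a threshold of 0.05. The fit was tested on simulated data. The lowest signal well above background was 9.59 to 15.2. Precision is set by having 3 arrays per line.

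The 6 genes and the lists were chosen with earlier results of these data known. Named genes are the 6, list genes called in any comparison, UBE2L3, USP41, TRIM25 and ARIH1, and the 3 nearest genes of each; IRF3, JAK1, PCNA, TSG101, UBA1, ATG7, HERC1 to HERC4, UBB and NEDD8 are named as examples of their groups only. Results for some genes and probes under this rule are not reported here. Markers of fibroblasts (COL1A1 well above background on all arrays; COL3A1, DCN and LUM on none) and endothelium (2 of 3; PECAM1 on none) were also read. Alternatives were another normalization, background correction, filter, choice of probe, test, prior and set of arrays, and blocks for slide and replicate number. Same-numbered arrays of different lines deviated together in 8 of 9 pairs (r over 0.1, range 0.10 to 0.337). Arrays of different numbers did so in 6 of 18 (range -0.315 to 0.261). The labels name no batch, and numbers were left out of the main fit and tried as a block. The main fit thus leaves out this pairing, and also the slides and scan runs, although they are known. The call of HERC5 in T47D-PA5 over T47D-VC1 depends on that choice.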

Additional observations from a re-analysis of the deposited data

How the results depend on the processing

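No gene of the pathway changed direction under any of 22 alternatives in any comparison. In T47D-PA6 over T47D-VC1, the 6 calls stood under 17 of them and 5 under the other 5, where UBA7 was lost (adjusted p up to 0.079). The replicate number as a replicate block gave 6, 4 and 5 calls of 6 in T47D-PA6 over T47D-VC1, T47D-PA5 over T47D-VC1 and T47D-PA6 over T47D-PA5, and added HERC5 in T47D-PA5 and changed no other call of the 6; the slide as a block gave the same counts. The fall of each enzyme relative to ISG15 was seen in 15 of 15 ratios with a 75th percentile shift and with normexp. It was also seen in 15 of 15 in the authors' table and without T47D-PA5 replicate 1. These settings were tried after the data were seen. All 15 share the ISG15 signal, and each fall restates its larger log2 fold change, so the count is no separate support. How many of all genes fall in this way was not counted.

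By the unpaired test of the methods, the pathway genes called were 0 in T47D-PA5 over T47D-VC1 (4 at an unadjusted p under 0.05, where limma called 3) and 2 in T47D-PA6 over T47D-PA5. The methods name this t test for datasets in general, and they define changed genes of the arrays by fold alone. Its adjustment over all genes was added here, so these counts are not those of the study's own rule. The later scan run alone called 6 in T47D-PA5 over T47D-VC1. It also called 3963 of all genes there, against 335 in the main fit. With 1 array left out, 5 to 6, 1 to 5 and 4 to 5 were called in the 3 comparisons. Of all genes, 696 to 2766, 100 to 593 and 713 to 2965 were then called.

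Of the 34 other system genes, 3 were called in T47D-PA6 over T47D-VC1, and 5 with normexp, 5 with an intensity trend, 11 in the later run and 1 to 4 with an array left out (1 without T47D-VC1 replicate 3, T47D-PA6 replicate 2 or T47D-PA6 replicate 3). In T47D-PA5 over T47D-VC1, 1 was called, and 0 with normexp, with no filter or with the unpaired test (4, 4 and 3 at an unadjusted p under 0.05), 2 with the stricter filter, 6 in the later run and 0 to 2 with an array left out. In T47D-PA6 over T47D-PA5, 2 were called, and 0 with no filter, the slide block, the unpaired test or only the compared lines (10, 6, 7 and 5 unadjusted), 9 in the later run and 0 to 5 with an array left out.

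Of the 16 targets, 6, 2 and 6 were called in the same comparisons. The later run called 11, 5 and 11. In T47D-PA5 over T47D-VC1, no filter and the unpaired test called 0 (5 and 4 unadjusted) and only the compared lines 1; with an array left out 0 to 4 were called. In T47D-PA6 over T47D-PA5 the unpaired test called 1, and leaving out an array gave 3 to 7. Over all genes the calls were 2017, 335 and 1952, from 432, 39 and 713 at the lowest to 7388, 3963 and 7102 in the later run. The cause was not tested. With normexp the log2 fold changes of the dim UBA7, HERC5 and HERC6 in T47D-PA6 over T47D-VC1 were 0.74, 1.7 and 1.12, against 1.64, 3.08 and 2.6, since its offset adds to every signal; ISG15, UBE2L6 and USP18 were at 6.22, 1.9 and 1.76. The dimmest pathway signals, those of HERC6 in T47D-VC1, lay near the lowest signal well above background.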
